A study of Homo sapiens with 4 samples.

Results

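The constitutive proteasome was followed through 40 genes, and 39 of them could be measured in all 4 libraries of HT29 cells, a cell line from a human colon adenocarcinoma. The genes were chosen by name: the subunits of the 20S core and the 19S particle, 3 chaperones of the 19S base, 2 activators with 1 inhibitor, and 3 factors that assemble the core. They stand among 15096 measured genes in one deposited table and 13283 in the other. The groups were cells given a miR-23b precursor (labelled "High miR23b"), the precursor control, cells given an antimir against miR-23b (labelled "Low miR23b"), and the antimir control. All 4 cultures, at passages 12 to 13, received 50 nM of their agent by lipid transfection per the labels' protocols, with a change of medium after 24 h and RNA extraction at 48 h. Precursors are synthetic RNAs that supply a microRNA, while antimirs are oligonucleotides that bind and block it. Each group held 1 library, so every difference below compares 2 libraries, has no replicate error and was given no test. Mature miR-23b was not analysed here, so the labels have no check from its level.

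The proteasome degrades proteins that carry ubiquitin chains. Its 20S core is a stack of rings: outer rings of alpha subunits form the gate, and inner rings of beta subunits hold the proteolytic sites. The 19S particle sits on the gate, binds ubiquitin, removes it, and uses a ring of ATPases to unfold the substrate and feed it into the core. Dividing and cancer cells keep these genes at high levels, and the transcription factor NFE2L1 raises them together when proteasome activity is blocked.

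MicroRNAs pair with target mRNAs mainly through their seed, so the mature miR-23b-3p is shown first, with its seed (bases 2 to 8) in capitals. It lies at chr9:95085265-95085287 on the plus strand of GRCh38.p14, per RefSeq.

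hsa-miR-23b-3p: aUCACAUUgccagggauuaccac

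A 7-base match to that seed, AATGTGA, was present in the longest annotated 3′ UTR (GENCODE 29) of 2 of the 38 measured genes with such a UTR (5.26%), against 3521 of 19164 genes in all (18.4%). These shares were not matched for UTR length, which ran from 57 bases (PSMC5) to 3723 bases (PSMB2) in the proteasome genes. The 2 sites are shown with 10 bases on either side and the match in capitals.

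PSMA5: tttgaaagttAATGTGActggaaatat

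PSMD12: gtaagtgttaAATGTGAtaaaagtaca

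The site of PSMA5, an alpha-ring subunit on chromosome 1, starts at base 2848 of a 3′ UTR of 2982 bases. The site of PSMD12, a subunit of the 19S lid on chromosome 17, starts at base 2809 of 2927. Neither is followed by the A that would extend it by 1 base. PSMA5 stood at 551 FPKM in the precursor library and 512 FPKM in its control, a centred difference of 0.08. FPKM is a read density per transcript length and library size, and a centred difference is that of log2(FPKM + 1), treated library minus its control, less the median over all measured genes. PSMD12 stood at 58.5 FPKM in the precursor library and 59.5 FPKM in its control, a difference of -0.04. In the antimir library PSMD12 had 60.7 FPKM, against 58.3 FPKM in its control (0.10). Summed over isoforms, the genes with a site lay on either side of 0 in the precursor comparison, and both lay above 0 in the antimir comparison. There PSMA5 differed by 0.46 from the sum and by 0.09 from protein-coding isoforms. The annotated transcript that carries the PSMA5 site, ENST00000271308, was a minor isoform, at 1.14 FPKM in the precursor library and 0.977 FPKM in its control, and at 1.04 FPKM in the antimir library and 0.822 FPKM in its control. The values of PSMA5 are thus mostly not those of that transcript. The annotated transcript that carries the PSMD12 site, ENST00000356126, had 20.3 FPKM in the precursor library and 19.4 FPKM in its control. In the antimir library it had 21.6 FPKM, against 19.5 FPKM in its control. Before centring, both site transcripts thus read slightly higher in each treated library than in its control, unlike the PSMD12 sum with the precursor. Whether other isoforms of either gene also hold the site was not examined. Over all measured genes the median difference was -0.02 with a site and 0.01 without one in the precursor comparison, and within 0.01 of 0 for both in the antimir comparison.

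Summed over isoforms of all types, the proteasome genes were abundant. Their levels ran between 36.9 and 551 FPKM in the precursor library, 34.7 and 572 FPKM in its control, 24.3 and 431 FPKM in the antimir library, and 25.3 and 375 FPKM in its control. The medians were 106 FPKM in the precursor library, 101 FPKM in its control, 71.7 FPKM in the antimir library and 72.2 FPKM in its control. Among genes at or above 1 FPKM the median level was 14.9 FPKM in the precursor control, 12.6 FPKM in the antimir library and 12.9 FPKM in the antimir control. By these sums none of the 39 genes lay below the median gene of any of the 4 libraries. From protein-coding isoforms some levels were much lower. PSME4 then had 7.42 FPKM in the precursor library, 8.68 FPKM in its control, 7.97 FPKM in the antimir library and 10.1 FPKM in its control. The median gene was not taken from protein-coding isoforms. The 2 deposited tables were normalised separately, so a level in one is set beside the other only loosely.

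**Figure D1:**
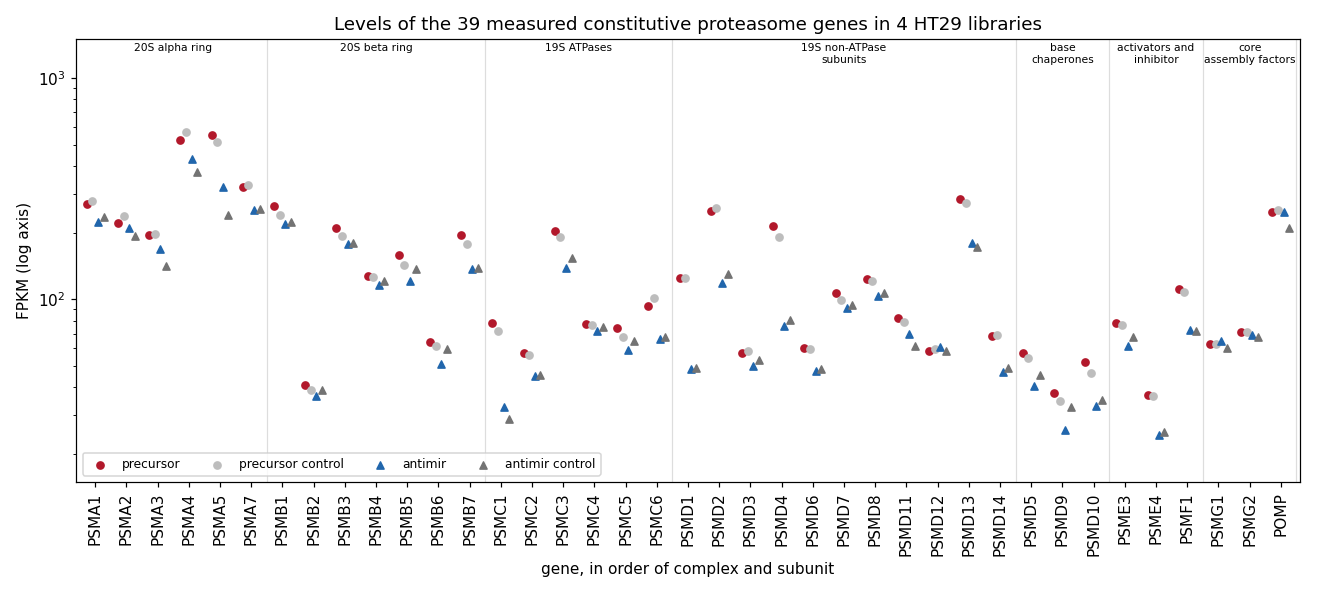
Level of each of the 39 measured genes (FPKM, log axis) in the 4 libraries, 1 point per library, with genes grouped by their place in the complex. Levels are sums over isoforms of all types. The alpha ring lies highest, with PSMA4 at 525 FPKM in the precursor library and 572 FPKM in its control. PSME4 and PSMD9 lie near the bottom in every library.

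Subunits that enter the assembled core in equal numbers did not have equal messages. Summed over isoforms, the 6 measured alpha subunits had a median of 295 FPKM in the precursor library and 303 FPKM in its control. Their median was 238 FPKM in both the antimir library and its control. The 7 beta subunits had medians of 159 FPKM in the precursor library, 142 FPKM in its control, 121 FPKM in the antimir library and 137 FPKM in its control. Within the beta ring the highest level was 6.45 times the lowest with the precursor, 6.15 times in its control, 5.94 times with the antimir and 5.74 times in its control. PSMB2, a non-catalytic beta subunit, was the lowest of the ring, at 41.1 FPKM in the precursor library, 38.9 FPKM in its control, 36.8 FPKM in the antimir library and 39.1 FPKM in its control. PSMB1, another non-catalytic subunit, was the highest of the ring by the sum. It had 265 FPKM with the precursor, 240 FPKM in its control, 218 FPKM with the antimir and 224 FPKM in its control. From protein-coding isoforms in the precursor control it had 90.8 FPKM, below PSMB7 at 131 FPKM. The order of the 39 genes was much the same in both controls (Pearson's r = 0.94 and Spearman's rho = 0.94 across genes on the log2 scale, given as a description, since the genes share the 2 libraries).

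Summed over isoforms, the alpha ring lay on opposite sides in the 2 comparisons: 1 of 6 measured subunits was above 0 in the precursor comparison (median difference -0.06) and 5 of 6 in the antimir comparison (median 0.20). The precursor side depended on the sum: 4 of 6 were above 0 from the most abundant isoform (median 0.05) and 2 of 6 from protein-coding isoforms (median -0.07). The antimir side stayed at 5 of 6 by both routes, with medians of 0.13 and 0.12. PSMA5 had 323 FPKM in the antimir library and 241 FPKM in its control, a difference of 0.46, the largest of all 39 genes. PSMA3 had 195 FPKM in the precursor library and 197 FPKM in its control (-0.03), and 169 FPKM in the antimir library against 142 FPKM in its control (0.29). PSMA4, the most abundant subunit in 3 of the 4 libraries, had 525 FPKM in the precursor library and 572 FPKM in its control (-0.14), and 431 FPKM in the antimir library and 375 FPKM in its control (0.24). PSMA2 followed the same order, with 222 FPKM against 239 FPKM in the precursor comparison (-0.13) and 210 FPKM against 193 FPKM in the antimir comparison (0.16). PSMA1 and PSMA7 differed by -0.07 and -0.06 with the precursor, about the size of the ring's median there. With the antimir they differed by -0.03 and 0.01. PSMA1 had 269 FPKM in the precursor library and 278 FPKM in its control, and 225 FPKM in the antimir library and 235 FPKM in its control. PSMA7 had 321 FPKM in the precursor library and 328 FPKM in its control, and 252 FPKM in the antimir library and 257 FPKM in its control.

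The last alpha subunit, PSMA6, could not be followed in the same way. Of its 14 isoforms, 12 carried a failed status in each table, and these held 99.7% of its FPKM with the precursor and 99.1% with the antimir. The 2 isoforms left stood at 0.762 FPKM in the precursor library and 0.424 FPKM in its control, below the minimum used. With the failed estimates kept, PSMA6 would read 267 FPKM against 259 FPKM in the precursor comparison (0.02) and 137 FPKM against 114 FPKM in the antimir comparison (0.30).

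The beta ring lay mostly above 0 in the precursor comparison and was centred near 0 in the antimir comparison. In the precursor comparison 6 of 7 beta subunits were above 0 (median 0.09), and in the antimir comparison 3 of 7 (median -0.01). PSMB5, the chymotrypsin-like catalytic subunit, had 159 FPKM in the precursor library and 142 FPKM in its control (0.14), and 121 FPKM in the antimir library and 137 FPKM in its control (-0.13). PSMB6, the caspase-like subunit, had 64.3 FPKM in the precursor library and 61.2 FPKM in its control (0.05), and 51.3 FPKM in the antimir library and 59.4 FPKM in its control (-0.17). PSMB7, the trypsin-like subunit, had 195 FPKM in the precursor library and 178 FPKM in its control (0.10), and 137 FPKM in the antimir library and 139 FPKM in its control (0.02). All 3 catalytic subunits were thus a little higher with the precursor, and none differed by as much as 1.2-fold in either comparison.

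In the 19S particle the differences were centred near 0. The 6 ATPases had medians of 0.04 with the precursor and -0.01 with the antimir, and the 11 non-ATPase subunits of -0.01 and 0.00. From the most abundant isoform the ATPases had medians of -0.05 with the precursor and -0.06 with the antimir. From protein-coding isoforms these medians were 0.08 and 0.03. PSMC6 had 93.2 FPKM in the precursor library and 101 FPKM in its control, the lowest ATPase difference there (-0.14). In the antimir library it had 65.9 FPKM, against 67.5 FPKM in its control (0.00). From protein-coding isoforms PSMC6 differed by 0.06 with the precursor and 0.17 with the antimir. PSMD4, a ubiquitin receptor, had the highest precursor difference of the 39 genes at 0.15, with 214 FPKM in the precursor library and 190 FPKM in its control. In the antimir comparison it had 75.6 FPKM, against 81.0 FPKM in the control (-0.06). PSMD14, the deubiquitinase of the lid, had 68.3 FPKM in the precursor library and 69.0 FPKM in its control, and 47.1 FPKM in the antimir library and 48.8 FPKM in its control. PSMD11, a lid subunit, had 69.7 FPKM in the antimir library and 61.4 FPKM in its control (0.22), where its most abundant isoform gave 0.09.

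The chaperones that help build the 19S base (PSMD5, PSMD9 and PSMD10) were all above 0 with the precursor (median 0.09) and all below 0 with the antimir (median -0.11) when isoforms were summed. These signs depended on the sum. With the precursor 2 of 3 lay above 0 from the most abundant isoform and from protein-coding isoforms, with PSMD9 below 0 at -0.12 and -0.11. With the antimir 2 of 3 lay above 0 from the most abundant isoform (PSMD5 at 0.08 and PSMD10 at 0.03) and 1 of 3 from protein-coding isoforms. PSMD10, also known as gankyrin, had 52.3 FPKM in the precursor library and 46.5 FPKM in its control (0.14), and 33.1 FPKM in the antimir library and 35.0 FPKM in its control (-0.04). PSMD9 had 25.6 FPKM in the antimir library and 32.8 FPKM in its control (-0.31), and 37.6 FPKM in the precursor library and 34.7 FPKM in its control (0.09). The antimir value of PSMD9 rests on 1 isoform that the authors' deposited table marks as having too little data to test, with 11.1 FPKM in the antimir library and 16.8 FPKM in its control. From tested isoforms only, the difference of PSMD9 was -0.06.

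The 3 factors that assemble the core, PSMG1, PSMG2 and POMP, lay below 0 with the precursor (median -0.03) and above 0 with the antimir (median 0.15) when isoforms were summed. PSMG1 changed sides with the isoforms taken, at 0.05 with the precursor from its most abundant isoform and at -0.01 with the antimir from protein-coding isoforms. POMP, the maturation protein that helps half-cores join and is degraded by the finished core, had 249 FPKM in the precursor library and 253 FPKM in its control (-0.04). In the antimir library it had 248 FPKM, against 209 FPKM in its control (0.29). PSMG1 had 64.8 FPKM in the antimir library and 60.1 FPKM in its control (0.15). Among activators and inhibitor, PSME3, PSME4 and PSMF1 ranged between -0.01 and 0.02 with the precursor and between -0.09 and 0.05 with the antimir. From protein-coding isoforms all 3 lay below 0 with the precursor (median -0.13). PSME4, a large activator named PA200, was the least abundant gene in the antimir library and its control, at 24.3 FPKM and 25.3 FPKM.

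**Figure D2:**
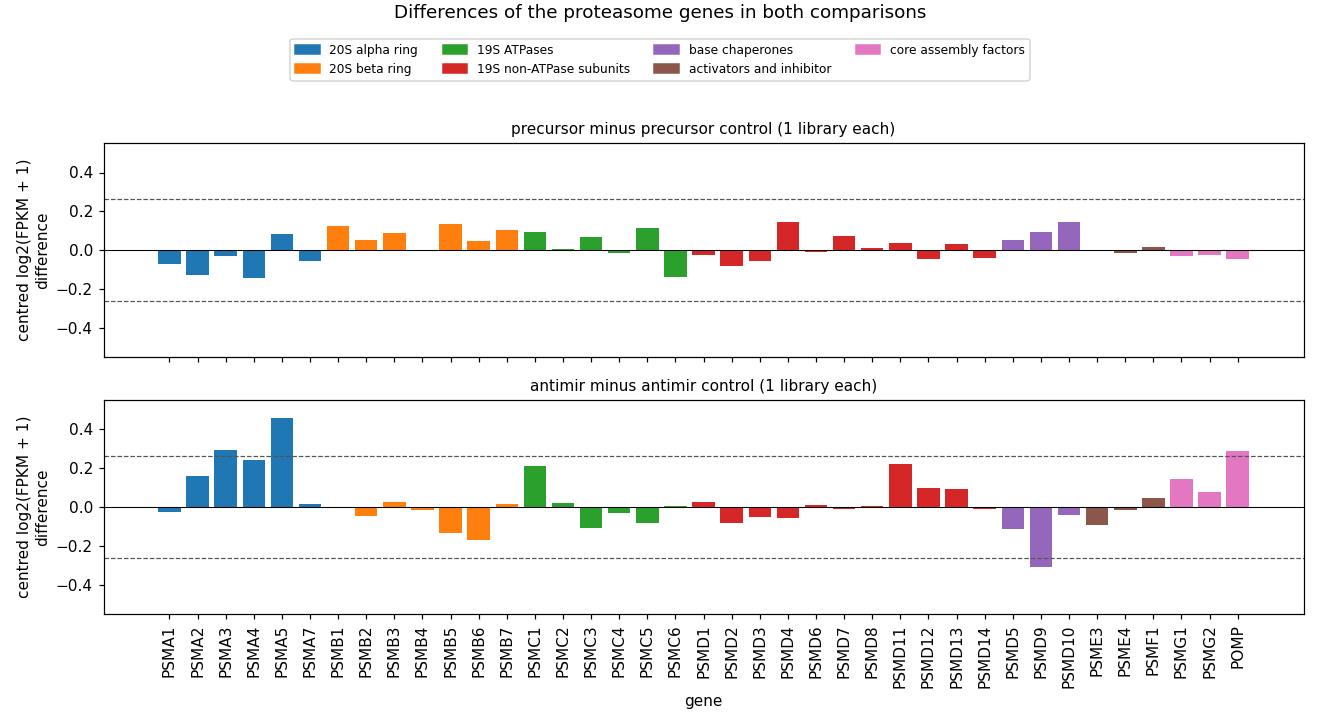
Centred log2(FPKM + 1) difference of each of the 39 genes, coloured by place in the complex, for precursor minus its control (upper panel) and antimir minus its control (lower panel), 1 library each. Dashed lines mark 1.2-fold: no precursor bar reaches them, while PSMA5, PSMA3 and POMP lie above and PSMD9 below them in the antimir panel.

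Read over all 39 genes, the precursor comparison was centred on 0.01 (20 genes above 0 and 19 below), with a range of -0.14 to 0.15. None of the 39 was past 1.2-fold, where 8.25% of all measured genes were past it upward and 9.54% downward. Abundant genes vary less, so the same shares were taken over genes with a mean of at least 10 FPKM, where they were 5.36% upward and 6.28% downward. At 1.5-fold the background was 2.12% upward and 2.33% downward, and the proteasome count was again 0.

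The antimir comparison was centred on 0.00 (21 above 0 and 18 below), with a range of -0.31 to 0.46. Past 1.2-fold, 3 genes lay higher (PSMA5, PSMA3 and POMP, 7.69%), against 12.9% of all measured genes and 9.3% of those with at least 10 FPKM. In the other direction 1 gene, PSMD9, was past 1.2-fold (2.56%), against 10.6% of all measured genes and 7.81% of those with at least 10 FPKM. None was past 1.5-fold, where the background was 3.73% upward and 2.14% downward. The counts were thus not above the background in either comparison or direction.

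Of the 39 genes, 21 (53.8%) had opposite signs in the 2 comparisons, which use different control libraries. Of 12997 genes measured in both comparisons, 57.2% did so, and 59.8% of the 7322 with at least 10 FPKM in both. Both differences exceeded 0.1 in size for 3 proteasome genes (7.69%), PSMA2, PSMA4 and PSMB5, against 21.5% of all genes and 19.9% of those with at least 10 FPKM. Opposite signs were thus no more frequent among the proteasome genes than in the background. Across the 39 genes the differences had Pearson's r of -0.27 and Spearman's rho of -0.32, given as a description.

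As a scale for these sizes, the 2 control libraries were set against each other. The median size of the difference over the 39 genes was 0.054 for precursor against its control, 0.059 for antimir against its control, and 0.237 for antimir control against precursor control. Over genes with at least 10 FPKM the same sizes were 0.097, 0.117 and 0.227. Between the controls 5 proteasome genes were past 1.2-fold higher in the antimir control and 7 lower, against 13.6% and 29.7% of genes with at least 10 FPKM. Past 1.5-fold there were 0 higher and 5 lower (12.8%), against 1.27% and 14% of those genes. The tables were normalised separately, and batch and treatment cannot be told apart here.

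**Figure D3:**
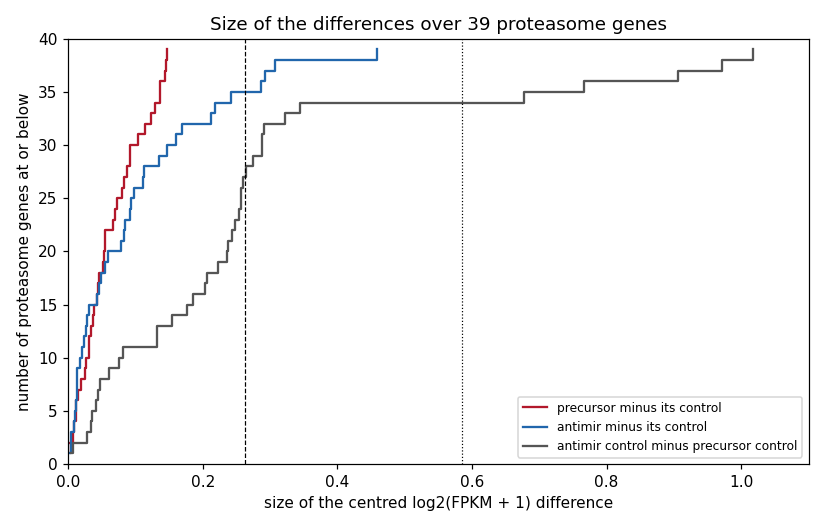
Number of the 39 genes (vertical axis) whose centred log2(FPKM + 1) difference is at or below a given size (horizontal axis) for precursor minus its control, antimir minus its control, and antimir control minus precursor control. Dashed and dotted lines mark 1.2-fold and 1.5-fold. The curve of the controls lies to the right of the other curves over most of its range and is the only one to pass the dotted line.

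The 5 genes lower in the antimir control were PSMD1, PSMC1, PSMD4, PSMA5 and PSMD2. PSMD1, the largest 19S subunit, had 48.8 FPKM in the antimir control and 125 FPKM in the precursor control (-1.02), but 44.2 FPKM and 52.4 FPKM from isoforms that GENCODE 29 types as protein-coding (-0.16). PSMA5 had 241 FPKM in the antimir control and 512 FPKM in the precursor control (-0.77), and 117 FPKM and 114 FPKM from protein-coding isoforms (0.12). For these 2 genes the gap thus lay in isoforms typed as not coding. For PSMC1, an ATPase, the coding isoforms differed at least as much as the sum, at 18.4 FPKM in the antimir control and 42.9 FPKM in the precursor control (-1.10). For PSMD2 the coding isoforms also differed at least as much as the sum, at -0.84 against -0.68. PSMD4 lay between these cases, at -0.43 from coding isoforms and -0.91 from the sum.

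Retained-intron and processed transcripts took 2.44% of the FPKM of PSMD4 in the antimir control and 40.5% in the precursor control, and the treated libraries lay close to their own controls, at 4.40% with the antimir and 38.7% with the precursor. Over protein-coding genes with at least 10 FPKM the median share of such transcripts was 20.4% with the precursor, 20.8% in its control, 10.2% with the antimir and 10.3% in its control. The typical gene of the antimir pair thus held less of them. Over the 39 proteasome genes the median share per gene was low in both pairs. It was 3.13% with the precursor, 5.16% in its control, 3.49% with the antimir and 2.58% in its control, so PSMD4 is not typical of them. The pooled FPKM of the 39 genes read otherwise. Retained introns held 11.4% of it with the precursor, 11.8% in its control, 7.09% with the antimir and 7.27% in its control. Processed transcripts held 12.2%, 12.0%, 7.28% and 5.33% in the same order. By pooled shares the antimir pair thus held less of both types. What set the 2 pairs apart was not tested.

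The part that each isoform played was therefore followed within each comparison. The 40 genes had 312 isoforms in each table, of which 134 were protein-coding, 94 retained introns, 35 targets of nonsense-mediated decay, 30 processed transcripts, and 19 had no match in GENCODE 29. A measured gene had between 1 and 22 isoforms, with a median of 6. Protein-coding isoforms held 58.5% of the FPKM of the 39 genes with the precursor, against 59.0% in its control, and 65.9% with the antimir, against 66.8% in its control. Processed transcripts held 7.28% with the antimir, against 5.33% in its control.

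The largest difference, that of PSMA5, lay in isoforms typed as not coding. Its main protein-coding isoform, ENST00000538610.1, had 120 FPKM in the antimir library and 116 FPKM in its control. Its processed transcripts made up most of the rest: ENST00000477897.1 had 95.9 FPKM in the antimir library and 56.5 FPKM in its control, and ENST00000491287.1 had 93.2 FPKM in the antimir library and 56.0 FPKM in its control. From protein-coding isoforms alone the difference of PSMA5 was 0.09, against 0.46 from the sum. PSMA3 gave 0.16 from protein-coding isoforms and 0.34 from its most abundant isoform, which is typed as a retained intron. POMP, with 1 main protein-coding isoform, gave 0.28 to 0.29 either way, and PSMA4 gave 0.21 from protein-coding isoforms. When only the most abundant isoform was taken, 11 of the 39 genes changed sign in the precursor comparison and 11 in the antimir comparison, none of them past 1.2-fold in the sum.

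**Figure D4:**
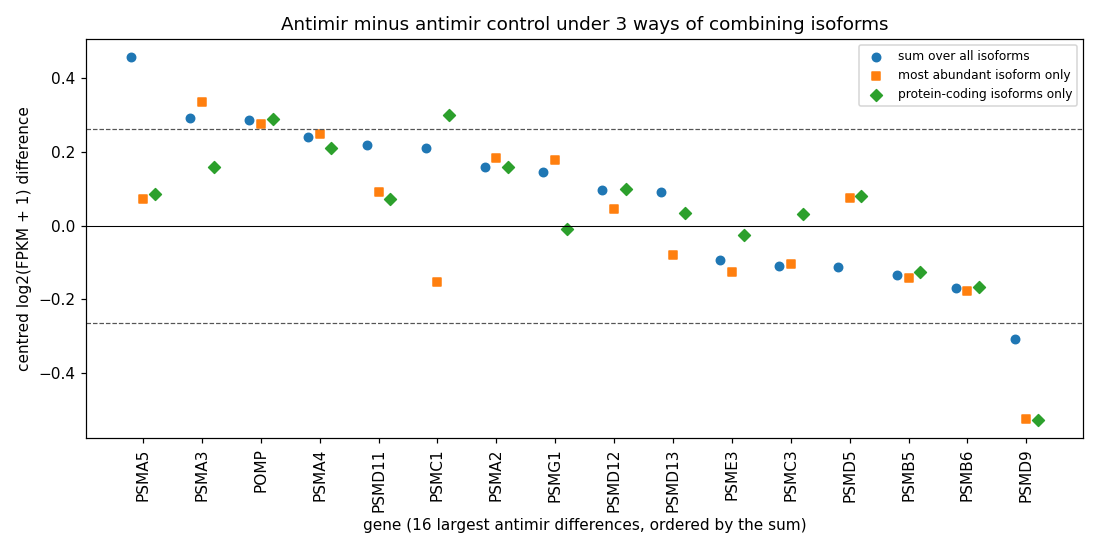
Centred log2(FPKM + 1) difference, antimir minus its control, for the 16 genes with the largest differences, from the sum over all isoforms (circles), the most abundant isoform (squares) and protein-coding isoforms (diamonds). Dashed lines mark 1.2-fold. PSMA5 lies at 0.46 from the sum and near 0.1 by the other routes, while POMP and PSMA4 keep their place.

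The authors' deposited table called 27 of 242 tested isoforms of these genes in the precursor comparison, 11 of them higher and 16 lower than in the control. These are 4.55% and 6.61%, against 6.91% and 6.66% of all tested isoforms called higher and lower in that table. The authors' p-values and q-values compare 2 libraries without replicates. The calls fell on 20 of the genes, a count that grows with the isoforms tested per gene. The same share over all genes was not taken. PSMD2, a large subunit of the 19S base, had the most calls, 2 in each direction among 18 tested isoforms. Its retained-intron isoform ENST00000460628.1 was listed at 0 with the precursor, against 6.64 FPKM in the control, and its retained-intron isoform ENST00000496925.1 had 21.2 FPKM in the precursor library and 14.5 FPKM in the control. The processed transcript ENST00000486193.1 of PSMA7 had 13.6 FPKM in the precursor library and 28.5 FPKM in the control (q = 4.23e-07 in the authors' deposited table), while the PSMA7 sum differed by -0.06. Calls of single isoforms thus sat inside sums that were close to level. In the antimir comparison of the authors' deposited tables, 0 of 219 tested isoforms was called, against 0.414% of all tested isoforms called in either direction. There 1 isoform of these genes had an unadjusted p below 0.05, a minor one of PSMB7 (p = 0.0231 in the authors' deposited table).

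Promoters are printed for the 3 genes past 1.2-fold upward in the antimir comparison, from 250 bases before to 50 after the start in RefSeq (GRCh38.p14), in the direction of the gene. Capitals mark the motifs searched on both strands: TGACNNNGC (the core of the antioxidant response element that NFE2L1 and NFE2L2 bind), CCAAT (bound by NF-Y) and CCGGAAG (an ETS core). In these windows no matches overlapped.

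PSMA5, chr1:109426399-109426698, minus strand: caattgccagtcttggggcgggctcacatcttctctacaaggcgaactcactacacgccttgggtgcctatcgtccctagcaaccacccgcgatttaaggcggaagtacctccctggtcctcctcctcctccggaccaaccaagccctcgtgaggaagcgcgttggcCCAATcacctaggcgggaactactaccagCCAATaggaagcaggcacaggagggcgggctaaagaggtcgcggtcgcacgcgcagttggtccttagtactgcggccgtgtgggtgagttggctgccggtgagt

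PSMA3, chr14:58244593-58244892, plus strand: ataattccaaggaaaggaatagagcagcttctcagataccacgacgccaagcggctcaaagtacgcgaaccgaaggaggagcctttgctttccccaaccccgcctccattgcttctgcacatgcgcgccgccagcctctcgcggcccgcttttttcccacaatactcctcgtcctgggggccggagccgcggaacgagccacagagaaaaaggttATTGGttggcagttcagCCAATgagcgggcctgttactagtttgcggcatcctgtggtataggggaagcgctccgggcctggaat

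POMP, chr13:28658880-28659179, plus strand: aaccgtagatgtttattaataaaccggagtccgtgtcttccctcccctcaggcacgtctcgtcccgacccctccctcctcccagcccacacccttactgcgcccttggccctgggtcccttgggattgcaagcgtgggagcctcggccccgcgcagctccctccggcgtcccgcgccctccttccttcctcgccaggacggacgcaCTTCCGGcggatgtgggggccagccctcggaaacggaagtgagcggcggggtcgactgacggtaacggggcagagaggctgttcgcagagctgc

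PSMA5 and PSMA3 each held 2 CCAAT matches and POMP held 1 CCGGAAG match. RefSeq windows were matched for 35 of the 40 genes. TGACNNNGC was in 12 of them (34.3%), against 16.1% of 27305 genes. CCAAT was in 18 (51.4%), against 39.7% of those genes, and CCGGAAG in 14 (40%), against 12.2%. These shares were not matched for expression or for the base content of the promoters. A match is a stretch of letters and does not show that a factor was bound.

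NFE2L1, the main activator of proteasome genes, had 41.0 FPKM in the precursor library and 36.6 FPKM in its control (0.14). In the antimir library it had 32.7 FPKM, against 35.6 FPKM in its control (-0.08). With the precursor its sign turned to -0.13 from its most abundant isoform and stayed at 0.13 from protein-coding isoforms. With the antimir these routes gave -0.15 and -0.08. Of the 13 genes listed for transcription of proteasome genes, 1 was past 1.2-fold higher and 0 lower with the precursor (median -0.02), and 2 were higher and 2 lower with the antimir (median -0.07), against 8.25% of all measured genes higher and 9.54% lower with the precursor, and 12.9% and 10.6% with the antimir. The higher one with the precursor was SEL1L, of the machinery that retrieves proteins from the endoplasmic reticulum. It had 48.2 FPKM in the precursor library and 31.5 FPKM in its control (0.58). SEL1L gave 0.75 from its most abundant isoform and 0.30 from protein-coding isoforms. With the antimir, DDI2, the protease that activates NFE2L1, had 10.3 FPKM and 13.9 FPKM in its control (-0.36). It was short of 1.2-fold from its most abundant isoform (-0.20) and from protein-coding isoforms (-0.19). NGLY1, which deglycosylates NFE2L1, had 14.3 FPKM and 11.8 FPKM in its control (0.30), and gave 0.36 and 0.31 by those routes. The others past 1.2-fold were NFYB, a subunit of NF-Y, at 0.27, and SYVN1, a ligase of the endoplasmic reticulum, at -0.38. NFYB gave 0.11 from its most abundant isoform and 0.38 from protein-coding isoforms. SYVN1 turned with the isoforms taken, to 1.04 from its most abundant isoform and 0.20 from protein-coding isoforms.

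Other parts of the proteasome that were not among the 40 genes gave 11 measured of 15 listed. With the precursor 4 were above 0 and 7 below (median -0.02), and with the antimir 5 and 6 (median -0.01). Past 1.2-fold, 1 was higher and 0 lower with the precursor, against 8.25% and 9.54% of all measured genes. With the antimir 1 was higher and 1 lower, against 12.9% and 10.6%. The gene past it with the precursor was PAAF1 at 0.28, which gave 0.77 from its most abundant isoform and 0.05 from protein-coding isoforms. UCHL5, a deubiquitinase of the 19S particle, had 52.2 FPKM in the antimir library and 42.3 FPKM in its control (0.34). ADRM1, the ubiquitin receptor that docks UCHL5, had 59.7 FPKM and 74.2 FPKM in its control (-0.27). UCHL5 gave 0.29 from its most abundant isoform and 0.58 from protein-coding isoforms. ADRM1 gave -0.22 and -0.27 by those routes, the first of them short of 1.2-fold. SHFM1, the smallest lid subunit, was the most abundant of this list, at 595 FPKM in the precursor library, 596 FPKM in its control, 501 FPKM in the antimir library and 466 FPKM in its control.

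Ubiquitin itself and its supply showed small differences. Of 6 genes for ubiquitin and its E1 enzymes, 4 lay above 0 with the precursor (median 0.07) and 2 with the antimir (median -0.11). Among 11 measured genes for substrate shuttles and VCP partners, 10 lay above 0 with the precursor (median 0.06) and 2 with the antimir (median -0.16). UBQLN2 was the one shuttle past 1.5-fold, at 1.18 FPKM in the antimir library and 2.60 FPKM in its control (-0.68). Of the 5 ligases that work with the proteasome, UBR4 had 75.6 FPKM in the antimir library and 60.6 FPKM in its control (0.36), but a difference of -0.04 from its most abundant isoform.

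The immunoproteasome is the interferon-induced form of the same machine, in which PSMB8, PSMB9 and PSMB10 replace the constitutive catalytic subunits. Its 5 genes all lay above 0 with the antimir (median 0.53), and 4 of 5 below 0 with the precursor (median -0.10). PSMB9 had 13.2 FPKM in the antimir library and 5.51 FPKM in its control (1.16), and PSMB8 had 32.6 FPKM and 17.0 FPKM in its control (0.94). PSMB10 differed by 0.30. The constitutive counterparts differed by -0.17 for PSMB6 (replaced by PSMB9), -0.13 for PSMB5 (replaced by PSMB8) and 0.02 for PSMB7 (replaced by PSMB10) in the same comparison.

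Interferon response genes were listed because they were known to move in the antimir comparison, so their direction there is no finding. All 10 were past 1.5-fold higher with the antimir (median 1.81), against 3.73% of all measured genes. With the precursor 7 of 8 measured lay below 0 (median -0.27). The part of that response in the values of PSMA3, PSMA4, PSMA5 and POMP was not tested. All 8 epithelial markers were measured in both comparisons. With the precursor all 8 lay above 0 (median 0.11) and none was past 1.2-fold, and with the antimir 3 lay above 0 and 5 below (median -0.06), with CDH1, the adhesion protein E-cadherin, past 1.2-fold lower at -0.28. The part of either shift in the proteasome values was not tested. Of 10 markers of other cell types, 0 were past the minimum, their FPKM summed to 1.06 with the precursor, 1.03 in its control, 0.967 with the antimir and 0.863 in its control, and PTPRC, CD3E and COL3A1 were among those listed at or near 0. In RNA from whole cultures, fewer cells of a kind and less RNA per cell cannot be told apart.

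Processed pseudogenes resemble these mRNAs, and reads can be split between them. Of 21 listed by name, 6 had a mean of at least 1 FPKM in the table of the precursor pair and 2 in that of the antimir pair. PSMC1P1 had 17.1 FPKM in the precursor library and 16.4 FPKM in its control, and 1.66 FPKM in the antimir library and 1.54 FPKM in its control. PSMA6P1 had 10.9 FPKM in the precursor library and 11.6 FPKM in its control, and 4.87 FPKM in the antimir library and 3.88 FPKM in its control. The level of PSMC1, at 78.2 FPKM in the precursor library and 72.1 FPKM in its control, and 32.7 FPKM in the antimir library and 28.9 FPKM in its control, is uncertain for this reason.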

How the data were processed

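Total RNA of 4 HT29 libraries was sequenced. Per the submitters' processing notes, bcl2fastq 1.8.3, TopHat2 2.0.11, Cufflinks 2.2.0 and Cuffdiff were used with hg19; their settings and the annotation are not given in the sources used here. Both tables deposited by the authors hold FPKM per isoform for a treated library and its control (named with a final N, per the file headers), and the authors' p-value and q-value. FPKM carries no counts, so depth is unknown and no interval is given.

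A gene's FPKM was summed over transcript entries without a failed status. Differences used log2(FPKM + 1), which understates changes of low genes, for genes with a mean of at least 1 FPKM, centred on their median (0.022 with the precursor, -0.039 with the antimir, -0.317 between controls). Genes past 1.2-fold or 1.5-fold were counted without a test. GENCODE 29 and RefSeq were matched by identifier or symbol only, because of their other build. The rule for named genes took the extremes of difference and level, catalytic subunits, members past 1.2-fold, with opposite differences, most called isoforms, failed isoforms or a sign that turned with the most abundant isoform, not all of which are given; PSMB1, PSMD12 and PSMD14 were named, and isoform types compared between the controls, after their values were seen. Members and lists were chosen with earlier results of these data known. The scripts were tested on simulated data. Python 3.11.15, pandas 2.3.3 and numpy 2.4.6 were used.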

Additional observations from a re-analysis of the deposited data

Results flagged for a closer look

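Each table also holds 1 entry per gene for the whole locus, under the gene's own identifier, which the comparisons above do not use. For the 39 genes, 28 of these entries were higher in the antimir library than in its control and 11 lower (71.8% higher, against 58.1% of 16002 genes), with a median ratio of 1.09 over these genes and 1.03 over all. In the precursor library 1 was higher and 38 lower than in the control (97.4% lower, against 83.4% of 17729 genes), with a median ratio of 0.758 over these genes and 0.797 over all. These entries were small, at most 1.17 FPKM in the antimir library and 0.879 FPKM in the precursor library.

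The pseudogene PSMC1P5 was listed at 101 FPKM in the precursor library and 73.7 FPKM in its control, above PSMC1 itself, and at 0 in the antimir library and its control.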

How the results depend on the processing

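With 1 library per group, no difference has a replicate check, and no library could be left out. No paired analysis was possible because each group holds 1 library. The median over the 39 genes moved by no more than 0.05 under any alternative, and no gene past 1.2-fold changed sign. The count past 1.2-fold with the precursor was 0 in the report, 1 without the filter on low values, 3 with the most abundant isoform, 1 with tested isoforms only and 1 with protein-coding isoforms only (chosen after seeing the data). With the antimir it was 4 in the report, 2 with tested isoforms only and 2 without centring. With the antimir it was 5 from protein-coding isoforms, of which 2 were higher (PSMC1 and POMP) and 3 lower (PSMD2, PSMD9 and PSME4), so that PSMA5 and PSMA3 were no longer past 1.2-fold; it was 4 from the most abundant isoform, 2 in each direction. The count past 1.5-fold with the antimir was 0 in the report and 1 without the filter, which admits the rest of PSMA6. Centring decided the split of signs: without it 25 genes lay above 0 and 14 below with the precursor, and 12 above and 27 below with the antimir. Differences of single genes moved by over 0.05 for 19 of 39 with the precursor and 18 of 39 with the antimir under the most abundant isoform. The cause of these shifts was not tested. Depth is unknown, so what it limits cannot be given.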
